A study of Mus musculus with 8 samples.

Results

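Among the cells of adult mouse tibia, 654 barcodes met a rule for mature neutrophils with transcripts of Cxcr2 and Retnlg, and 580 of them held fewer than 1600 genes, the number below which the study discarded cells. They were 6.07% of the 10767 barcodes that passed the quality limits used here, out of 12564 barcodes in all. Of the 74 members with at least 1600 genes, 54 were called doublets and 53 held at least 3 UMIs of B-cell markers, so the name goes with the 580 under that number. The 74 gave 827998 of the members' 2652105 UMIs and are part of every value given for mature neutrophils or members as a whole. The members were chosen by their own counts of unique molecular identifiers (UMIs, each of which marks 1 captured transcript). A member had at least 300 genes and at most 20% mitochondrial UMIs. It held at least 50 UMIs of S100a8 per 10000 UMIs, at least 1 UMI of Cxcr2 and at least 2 UMIs of Retnlg. It also held fewer than 20 UMIs of Ltf, fewer than 5 of Fcnb and fewer than 40 of Elane, Prtn3 and Mpo together, all per 10000. Because these genes chose the members, their levels are given as a description. The gene count, the share of mitochondrial or ribosomal UMIs and the reporter transcripts were not used, apart from the lowest and highest values allowed.

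The cells came from the trabecular bone of tibiae, with part of the growth plate, at P56, at 8 weeks of age, and were pooled from 3 mice before sequencing. Every mouse carried MMP14 F/+, COL10A1cre, R26-tdT and Col1a1-2.3-GFP, so there was no group without the floxed Mmp14 allele, the Cre, the tdTomato reporter or the GFP transgene. The Cre acts in hypertrophic chondrocytes, and the GFP transgene is driven by a 2.3 kb fragment of the Col1a1 promoter that is active in osteoblasts. Neither the Cre nor the GFP is directed to neutrophils. The labels call the cells chondro-osteogenic, whereas neutrophils are blood cells. The study removed the digests that held most of the blood cells, so the neutrophils described here are those left after that step and their share does not measure their share of the marrow. In its analysis the study also left out clusters with Ptprc, a step not applied to the matrix used here. The 8 labelled samples form 1 group, and their barcodes were deposited in 1 matrix without a mark of mouse or sample and with 0 repeated barcodes. They were treated as 1 sample. There are no replicates, no test was possible, and all 95% intervals cover counting error only.

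Neutrophils mature in the bone marrow in an ordered sequence. Promyelocytes make the proteins of primary granules, such as Elane, Prtn3 and Mpo. Myelocytes, which still divide, and metamyelocytes, which no longer do, make the proteins of secondary granules, such as Ltf, Camp and Ngp. Mature cells close these programmes, carry Cxcr2, the receptor for the chemokines that draw them into the blood, and hold little RNA.

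Promoter sequences are shown for genes with opposite patterns in mature neutrophils and in their Ltf-high precursors. Cxcl2 and Il1b carried the most UMIs among the genes that were highest in mature neutrophils, and Camp and Chil3 among those that were lowest. Retnlg and Ltf were used by the rule that chose the cells. Each window runs from 250 bases before to 50 bases after the start of the RefSeq gene in build GRCm38.p6 and is written 5′ to 3′ on the strand of the gene. Capitals mark matches on either strand to a κB-like motif (GGG, any 2 bases, then TTTCC), to TTGCNNAA (C/EBP-like), to GAGGAAGT (PU.1-like) or to TATAAA. Each motif was searched separately.
Cxcl2, chr5:90903649-90903948, plus strand: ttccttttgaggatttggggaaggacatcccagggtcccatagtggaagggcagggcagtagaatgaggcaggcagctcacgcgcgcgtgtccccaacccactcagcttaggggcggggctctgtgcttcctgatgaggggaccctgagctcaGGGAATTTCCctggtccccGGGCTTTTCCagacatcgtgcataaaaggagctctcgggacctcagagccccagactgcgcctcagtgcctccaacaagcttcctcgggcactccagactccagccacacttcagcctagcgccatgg
Il1b, chr2:129371090-129371389, minus strand: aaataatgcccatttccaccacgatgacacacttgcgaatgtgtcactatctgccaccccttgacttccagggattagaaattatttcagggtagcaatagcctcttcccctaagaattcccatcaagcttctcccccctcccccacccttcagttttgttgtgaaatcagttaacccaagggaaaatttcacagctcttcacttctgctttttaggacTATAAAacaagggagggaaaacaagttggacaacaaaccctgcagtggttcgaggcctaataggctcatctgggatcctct
Camp, chr9:109849407-109849706, minus strand: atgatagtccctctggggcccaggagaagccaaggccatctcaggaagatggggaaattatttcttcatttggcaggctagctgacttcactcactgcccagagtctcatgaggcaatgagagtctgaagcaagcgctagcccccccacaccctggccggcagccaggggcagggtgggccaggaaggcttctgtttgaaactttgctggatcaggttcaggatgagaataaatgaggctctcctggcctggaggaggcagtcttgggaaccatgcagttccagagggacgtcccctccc
Chil3, chr3:106167515-106167814, minus strand: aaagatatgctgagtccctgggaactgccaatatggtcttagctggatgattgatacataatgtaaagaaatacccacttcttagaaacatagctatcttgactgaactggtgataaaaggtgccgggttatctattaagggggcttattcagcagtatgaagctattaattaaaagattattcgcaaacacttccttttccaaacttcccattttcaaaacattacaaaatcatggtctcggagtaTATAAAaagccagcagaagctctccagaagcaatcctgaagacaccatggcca
Retnlg, chr16:48872358-48872657, plus strand: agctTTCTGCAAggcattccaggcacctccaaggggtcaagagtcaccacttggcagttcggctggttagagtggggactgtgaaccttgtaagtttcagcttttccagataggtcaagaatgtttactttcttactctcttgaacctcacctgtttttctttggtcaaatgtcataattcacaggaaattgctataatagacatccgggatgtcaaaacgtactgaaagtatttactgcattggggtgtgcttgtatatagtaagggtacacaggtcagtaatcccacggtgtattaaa
Ltf, chr9:111019042-111019341, plus strand: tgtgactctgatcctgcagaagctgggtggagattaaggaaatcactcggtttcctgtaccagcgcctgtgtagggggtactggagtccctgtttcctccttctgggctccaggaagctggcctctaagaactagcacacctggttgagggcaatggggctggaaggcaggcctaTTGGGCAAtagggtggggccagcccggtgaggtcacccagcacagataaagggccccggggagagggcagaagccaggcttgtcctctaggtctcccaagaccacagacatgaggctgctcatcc

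The window of Cxcl2 held the κB-like motif at 2 places, starting 97 and 78 bases before the start of the gene. Of 27025 promoter windows, 1.62% held this motif. TATAAA was found at base 31 before the start of Il1b and at base 3 before that of Chil3, and 14.2% of windows held it. Single C/EBP-like matches lay 246 bases before the start of Retnlg and 75 bases before that of Ltf, against 10.8% of windows with at least 1 match. No window shown held the PU.1-like letters, which occurred in 3.28% of windows. The window of Camp held none of these motifs. Of the 12 genes named below as highest and the 12 as lowest, 11 and 8 had a window. TATAAA occurred in 5 of the former and 1 of the latter, and the κB-like motif in 1 and 0. These matches describe letters in a window and were not tested for binding.

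Mature neutrophils held few UMIs and few genes. A member held from 647 to 58996 UMIs, with a median of 3028.5, and from 366 to 6385 genes, with a median of 1011. Ltf-high neutrophils were the 1798 barcodes with at least 50 UMIs of S100a8 and at least 20 of Ltf per 10000, and their medians were 7493.5 UMIs and 1777.5 genes. The middle 50% of members lay between 2281 and 4174 UMIs, below the range of 5265 to 13202 of the middle 50% of Ltf-high cells. The floor of 1600 genes was reached by 74 members, or 11.3% (95% interval 8.99% to 14%), and by 1065 Ltf-high cells, or 59.2% (56.9% to 61.5%). These intervals did not overlap.

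**Figure D1:**
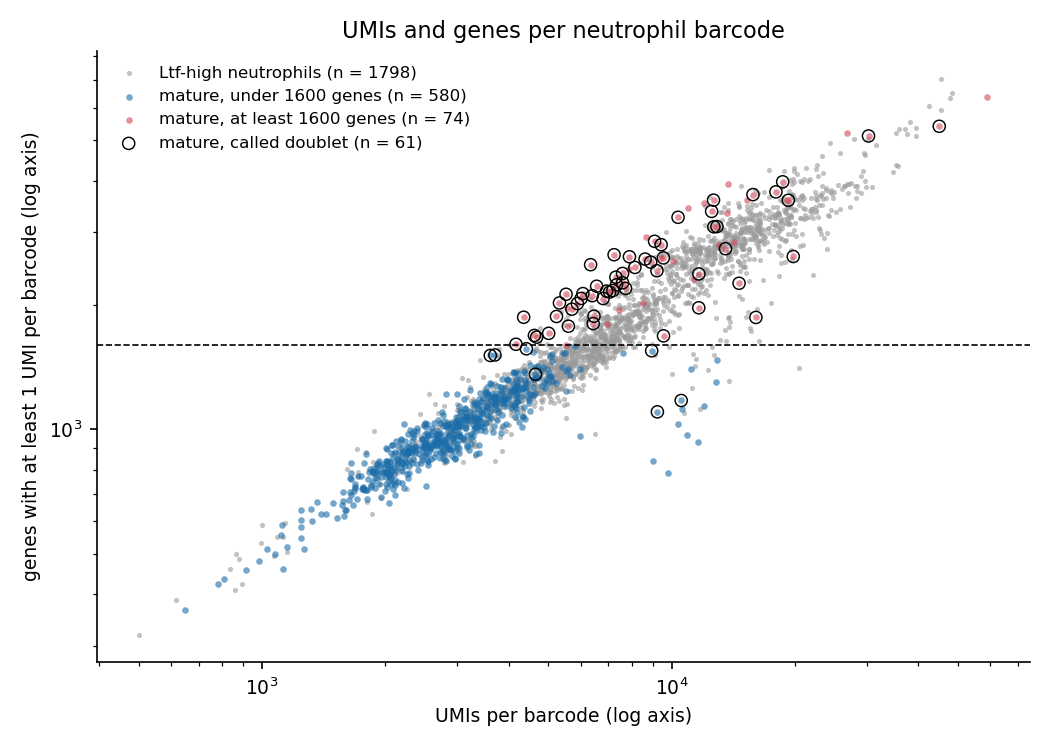
UMIs per barcode (log axis) against genes per barcode (log axis) for 580 mature neutrophils under 1600 genes, 74 of at least 1600 genes and 1798 Ltf-high neutrophils, with the 61 members called as doublets ringed and the floor of 1600 genes as a dashed line. The members under the floor sit at the lower left on the same band as the Ltf-high cells, and most ringed members sit on its upper edge above the line.

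The low number of genes went with the low number of UMIs. When 1000 UMIs were drawn from each barcode, members held a median of 476 genes (middle 50%, 444 to 504, n = 649) and Ltf-high cells a median of 438 (409 to 470, n = 1790). At equal depth the members thus had more genes, not fewer, than Ltf-high cells. B-lineage barcodes (fewer than 50 UMIs of S100a8 per 10000, at least 2 UMIs of Cd79a and 1 of Cd79b) had nearly the same depth as members, with a median of 3009 UMIs, and held 571 genes (543 to 596, n = 3223) in 1000 UMIs. Monocytes, with UMIs of Csf1r and Ccr2, held 587 (560 to 610, n = 551). Among barcodes of 2000 to 6000 UMIs, the floor was reached by 13 of 496 members (2.62%, 1.40% to 4.44%), by 23 of 588 Ltf-high cells (3.91%, 2.50% to 5.81%) and by 276 of 2122 B-lineage cells (13%, 11.6% to 14.5%). In this window the intervals of members and Ltf-high cells overlapped, and that of B-lineage cells lay above both. Fewer transcripts per cell and poorer capture of transcripts cannot be told apart in these counts.

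**Figure D2:**
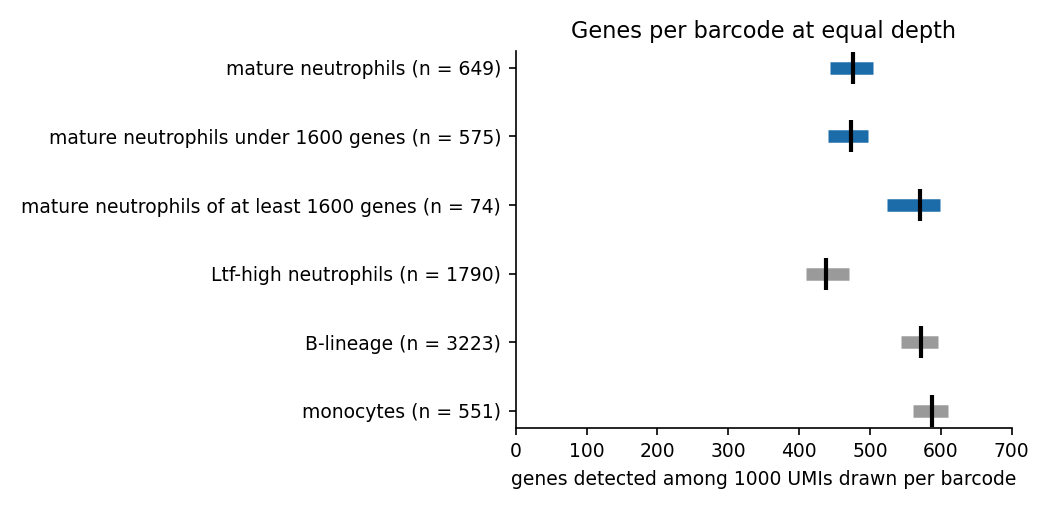
Genes detected among 1000 UMIs drawn per barcode, for each cell class, with the median as a black line and the middle 50% of barcodes as a bar. Mature neutrophils (median 476) lie between Ltf-high neutrophils (438) and B-lineage barcodes (571), and members of at least 1600 genes (570) lie beside the B-lineage barcodes.

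The UMIs of neutrophils were concentrated in few genes. The 10 genes with most UMIs took 29.9% of the UMIs of members, 39.4% of those of Ltf-high cells and 17.6% of those of B-lineage cells. S100a8 and S100a9, the subunits of calprotectin, took a median of 13.2% of a member's UMIs against 23.9% in Ltf-high cells. After them, the members' most abundant transcripts, leaving out mitochondrial and ribosomal protein genes, were Gm42418, Hbb-bs, Retnlg, Fth1, Tmsb4x, Hba-a1, Malat1 and Hba-a2. Gm42418 is a gene model that overlaps ribosomal RNA sequence. The globin sums were carried by few barcodes, since the median member held 19.0 UMIs of Hbb-bs per 10000 and the highest 3882, and the median for Hba-a1 was 7.58 and the highest 1701. Fth1, the heavy chain of ferritin, was at 20128 UMIs per 1000000 UMIs (CPM) in members and 4393 CPM in Ltf-high cells, with a log2 ratio of 2.20 (2.18 to 2.21).

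The steps of the rule left 3281 barcodes with S100a8, of which 1483 had fewer than 20 UMIs of Ltf per 10000, 1275 also met the limit on Fcnb and 1219 also that on Elane, Prtn3 and Mpo. Retnlg left 1120 of these and Cxcr2 left 654. The 466 barcodes that missed only Cxcr2, with 0 UMIs, were set beside the 316 members with exactly 1. Their median depth was 2501 UMIs against 2768, Retnlg was at 23829 CPM against 29323 CPM, and Il1b at 4403 CPM against 3615 CPM. Camp was at 2316 CPM against 1486 CPM, and Ngp at 2205 CPM against 2905 CPM. At this depth, 0 and 1 UMI of Cxcr2 do not separate cells without the transcript from cells with few copies. The 28 barcodes that missed only Retnlg, with 0 or 1 UMI, held Cxcr2 at 717 CPM, and the 28 members with 2 to 5 UMIs of Retnlg held it at 587 CPM. Cxcr2 was required in both groups. G0s2 was at 1993 CPM against 4890 CPM, Mmp8 at 122 CPM against 361 CPM, and Il1b at 5315 CPM against 5432 CPM. Across the Ltf limit, the 44 members with 10 to 20 UMIs of Ltf per 10000 held Camp at 5839 CPM and Il1b at 654 CPM. The 35 barcodes with 20 to 30, which met the limits on S100a8, Cxcr2 and Retnlg but not always the others, held them at 7529 CPM and 485 CPM. Across the S100a8 limit, 45 members with 50 to 100 UMIs per 10000 held Retnlg at 5051 CPM, and 22 barcodes with 25 to 50 held it at 6011 CPM.

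The rule required Cxcr2 and Retnlg in every member, and their levels are a description. Cxcr2 (chr1:74153989-74161246, plus strand of GRCm38) was at 639 CPM in members under 1600 genes, 188 CPM in those of at least 1600 genes, 81.8 CPM in Ltf-high cells and 1.30 CPM in B-lineage cells. Retnlg (chr16:48872621-48874496, plus strand), which encodes a secreted resistin-like protein, was at 38162, 14882, 7785 and 49.8 CPM in the same order. Per cell, the middle 50% of members under the floor held 172 to 509 UMIs of Retnlg per 10000, with a median of 364, and the highest held 1186. Ltf-high cells ranged widely, with a median of 52.3 and a middle 50% of 7.10 to 209. The distributions of single cells overlapped although their medians differed.

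Mmp8 and G0s2, markers of these cells that the rule did not use, were also higher in mature neutrophils. Mmp8 (chr9:7558456-7568485, plus strand), the neutrophil collagenase, was at 1647 CPM in members (95% interval of the log2 ratio against Ltf-high cells, 1.07 to 1.17, ratio 1.12). At equal depth the log2 ratio was 0.39, and among barcodes of 2000 to 6000 UMIs in both classes it was -0.46, so the direction for Mmp8 depended on the depth of the cells compared. G0s2 (chr1:193272161-193273217, minus strand), an inhibitor of the triglyceride lipase ATGL, was at 4570 CPM against 1407 CPM, with a log2 ratio of 1.70 (1.67 to 1.73) and of 1.60 at equal depth. After thinning each cell to 1000 UMIs, G0s2 was seen in 86.7% of members under the floor, 59.0% of Ltf-high cells and 1.58% of B-lineage cells. Without thinning it was seen in 94.1% of members under the floor.

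The comparison with Ltf-high neutrophils covered 9090 genes with at least 50 UMIs in both classes together, without the genes of the rule. Of these, 1352 (14.9%) were at least 2-fold higher in mature neutrophils and 1184 (13%) were at least 2-fold lower, and the median log2 ratio was -0.05. These counts are sizes and not tests, and they shifted with the members used. With the members under 1600 genes alone, 1003 of 8839 genes (11.3%) were higher and 3499 (39.6%) lower, with a median of -0.57. In that count the Ltf-high class kept its barcodes of at least 1600 genes. With both classes under 1600 genes and called doublets left out, 570 of 5127 genes (11.1%) were higher and 491 (9.58%) lower, with a median of -0.03. With called doublets left out of both classes, 1234 of 8503 genes (14.5%) were higher and 1930 (22.7%) lower. With each cell thinned to 1000 UMIs, 1099 (12.1%) were higher and 1924 (21.2%) lower. Without the secondary granule genes, Ltf, S100a8 and S100a9 in the denominator, 791 (8.70%) were higher and 2380 (26.2%) lower, with a median of -0.49. The ratios below are to be read against these medians.

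Cytokine and chemokine genes were among those with the highest ratios against Ltf-high cells. Ccl6, a chemokine of the CC family, was at 1549 CPM in members under the floor, 421 CPM in those above it and 45.3 CPM in Ltf-high cells. Its log2 ratio over all members was 4.72 (4.61 to 4.84), the highest among genes with at least 200 UMIs that held their direction in every check of the naming rule. Il1b (chr2:129364570-129371139, minus strand), which encodes the cytokine interleukin-1β, was at 3950, 1246 and 132 CPM in the same order, and its log2 ratio was 4.56 (4.49 to 4.62). Il1a, its relative interleukin-1α, was at 147, 44.7 and 4.69 CPM, with a log2 ratio of 4.62 (4.26 to 4.99). These transcripts were highest in members under the floor and lowest in Ltf-high cells. Every class came from the same enzyme digests of bone, without an undigested sample. The effect of that handling on these levels was not tested.

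Cxcl2 (chr5:90903871-90905938, plus strand), a ligand of the Cxcr2 receptor, was the most abundant of these genes. It was at 11310 CPM in members under 1600 genes, 4394 CPM in those of at least 1600 genes, 591 CPM in Ltf-high cells and 234 CPM in B-lineage cells, with a log2 ratio of 3.95 (3.92 to 3.99). Per cell, the middle 50% of members under the floor held 28.4 to 194 UMIs of Cxcl2 per 10000, with a median of 91.4 and a highest value of 864. The median Ltf-high cell held 0. After thinning, it was seen in 89.0% of members under the floor, 20.6% of Ltf-high cells and 4.84% of B-lineage cells, and without thinning in 95.3% of members under the floor. B-lineage cells, which should lack Cxcl2, stand for the background of free RNA at a median depth of 3009 UMIs against 2849 in members under the floor.

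The other genes among the 12 with the highest ratios have different functions. Acod1, which makes itaconate, was at 1922 CPM in members and 132 CPM in Ltf-high cells, with a log2 ratio of 3.86 (3.79 to 3.93). Ptgs2, the inducible cyclooxygenase, had a log2 ratio of 3.84 (3.65 to 4.03). Pla2g7, the acetylhydrolase of platelet-activating factor, was at 133 CPM against 6.47 CPM, with a log2 ratio of 4.37 (4.06 to 4.69). Slc2a6, a hexose transporter, and St3gal6, a sialyltransferase, had log2 ratios of 3.85 (3.53 to 4.19) and 3.91 (3.49 to 4.34). Jaml, a junctional adhesion protein of leukocytes, was at 4.13 (3.85 to 4.41). H2-Q10 and Gm5483, at 4.31 and 3.98, belong to families of near-identical genes, so that reads may be shared between copies and these 2 values are uncertain.

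Of 24 inflammatory mediators with at least 50 UMIs, 21 were at least 2-fold higher in mature neutrophils, 1 was lower and 2 lay between, with a median log2 ratio of 2.52 against -0.05 over all genes. In sum they took 33410 CPM in members under the floor, 13455 CPM in those above it, 4098 CPM in Ltf-high cells and 1614 CPM in B-lineage cells. Plaur, the urokinase receptor, was at -0.04 (-0.12 to 0.03), and Tnfsf13b, the B-cell factor BAFF, was lower at -1.26 (-1.73 to -0.83). Other genes of this list were chosen after their values were seen. Tnf was at 2.61 (2.50 to 2.71), Nlrp3, the sensor of an inflammasome, at 3.84 (3.72 to 3.96), and Il1rn, the antagonist of the interleukin-1 receptor, at 2.43 (2.29 to 2.56).

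**Figure D3:**
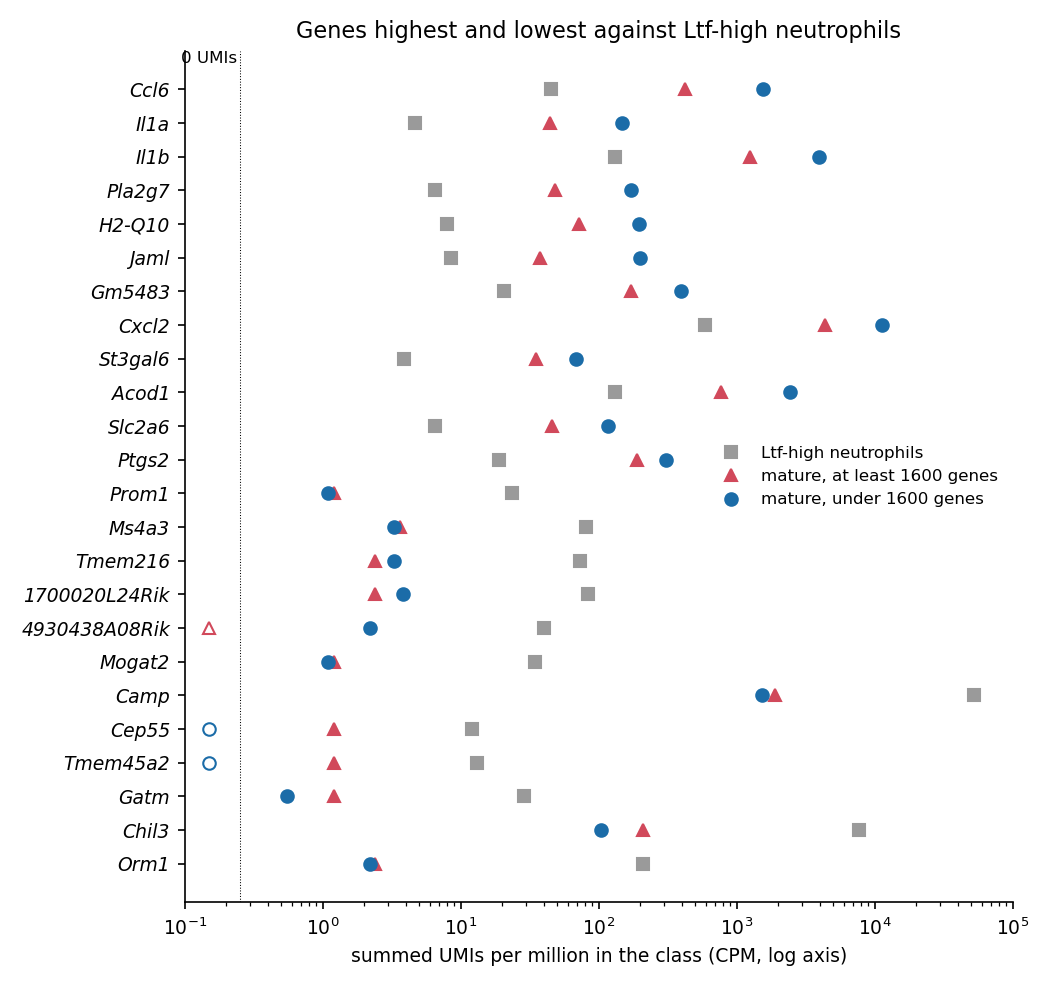
Summed CPM (log axis) of the 12 genes with the highest and the 12 with the lowest log2 ratio between mature and Ltf-high neutrophils, in members under 1600 genes (circles), members of at least 1600 genes (triangles) and Ltf-high cells (squares), with open marks where a class held 0 UMIs. For the 12 highest genes the circles lie farthest right and the triangles lie between circles and squares, and Camp and Chil3 stand out among the lowest by their level in Ltf-high cells.

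Cytokine and chemotaxis receptors were counted as separate lists. Csf3r, the receptor for the granulocyte growth factor G-CSF, was at 685 CPM in members under the floor, 202 CPM in those above it and 83.4 CPM in Ltf-high cells, with a log2 ratio of 2.68 (2.57 to 2.78). Of 23 cytokine receptors, 13 were at least 2-fold higher and 0 lower, with a median of 1.47. Tnfrsf1b, a receptor for tumour necrosis factor, was at 2.69 (2.52 to 2.85), and Il10ra, a chain of the interleukin-10 receptor, at 2.36 (2.08 to 2.64). Il18rap was at -0.07 (-0.26 to 0.12). Il6st was at -0.07 over all members but at -3.85 in those under the floor, where it had 1 UMI (0.548 CPM) against 22.9 CPM in those above.

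Of 17 chemotaxis receptors, without Cxcr2, 11 were at least 2-fold higher and 3 lower, with a median of 1.49. Hcar2, which senses hydroxybutyrate and niacin, was at 3.27 (3.17 to 3.38), Ptafr, the receptor for platelet-activating factor, at 2.71 (2.59 to 2.82), and Gpr35 at 3.43 (3.00 to 3.87). Ltb4r1, the receptor for leukotriene B4, went the other way, at 69.0 CPM in members and 332 CPM in Ltf-high cells, with a log2 ratio of -2.27 (-2.49 to -2.05). P2rx1 rested on 1 UMI in members against 80. Cxcr4, which retains cells in the marrow, was chosen after its value was seen. It was at 354 CPM in members and 77.8 CPM in Ltf-high cells, a log2 ratio of 2.19 (2.07 to 2.31), while B-lineage cells held it at 271 CPM.

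Adhesion genes and pattern receptors had genes in both directions. Of 19 adhesion and marrow-retention genes, 9 were higher and 2 lower, with a median of 0.84. Itgax, an integrin chain, was at 4.03 (3.23 to 4.88) from 47 UMIs in members and 19 in Ltf-high cells. Cd47, a signal against engulfment, was lower at -1.20 (-1.32 to -1.08), and so was Ceacam1 at -2.05 (-2.32 to -1.80). Of 30 pattern and Fc receptors, 18 were higher and 2 lower, with a median of 1.11. The lectin receptor Clec4d was at 3.30 (3.22 to 3.39), Tlr2 at 2.36 (2.26 to 2.46) and Sirpb1c at 3.56 (2.86 to 4.28). Clec12a was at -1.22 (-1.44 to -1.0), and the inhibitory Fc receptor Fcgr2b at -1.49 (-2.15 to -0.90).

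Secondary granule genes had a lower sum in mature neutrophils. Their sum, without Ltf, was 17861 CPM in members under the floor, 12996 CPM in those above it and 129834 CPM in Ltf-high cells, with a log2 ratio of -2.99 (-3.00 to -2.98). Of 19 such genes, 12 were at least 2-fold lower and 2 higher, with a median of -1.39. The Ltf limit chose against cells that make these proteins, so this difference is in part set by the rule. Camp (chr9:109847379-109849617, minus strand), the cathelicidin, was at 1530, 1908 and 52532 CPM in the 3 classes, with a log2 ratio of -4.99 (-5.04 to -4.95). Chil3 (chr3:106147554-106167564, minus strand), a chitinase-like protein, was at 104, 211 and 7662 CPM, with a log2 ratio of -5.80 (-5.96 to -5.65). The median member under the floor held 3.96 UMIs of Camp per 10000, and the median Ltf-high cell 472.

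Orm1, an acute-phase glycoprotein, had the lowest ratio, with 6 UMIs in all members and 3692 in Ltf-high cells (-6.55, -7.99 to -5.42). Ngp and Lcn2, chosen after their values were seen, were less far apart. Ngp was at 3130 CPM against 36956 CPM (-3.56, -3.59 to -3.53) and Lcn2, which binds the iron carriers of bacteria, at 3687 CPM against 13953 CPM (-1.92, -1.95 to -1.89). Adam8, a metalloprotease of the same list, was higher in members at 1.5 (1.42 to 1.58), and Ceacam10 was at 0.90 (0.69 to 1.11). Lyz1 had a log2 ratio of 3.06 over all members but rested on those above the floor, with 62.8 CPM there against 0.548 CPM in those under it and 2.40 CPM in Ltf-high cells.

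The genes of the other granules did not share 1 direction. Of 16 tertiary granule and secretory vesicle genes, 9 were higher and 0 lower, with a median of 1.07. Tspan13 was at 2.68 (2.43 to 2.93) and Slc11a1, a metal transporter of phagosomes, at 2.67 (2.42 to 2.92). The integrin chains Itgb2 and Itgam were at -0.11 (-0.21 to -0.00) and -0.37 (-0.47 to -0.27). Of 12 primary granule genes without Elane, Prtn3 and Mpo, 7 were lower and 1 higher, with a median of -1.15. Their sum was nevertheless higher in members (1.16, 1.13 to 1.19), since Srgn, the serglycin core protein of granules, was at 4550 CPM against 1120 CPM (2.02, 1.99 to 2.05). Ctsc and Calr were at 0.77 (0.39 to 1.12) and 0.29 (0.12 to 0.47). Ms4a3, a gene of promyelocytes, had 9 UMIs in members and 1422 in Ltf-high cells (-4.58, -5.72 to -3.65), and Prom1 had 3 and 410 (-4.37, -6.66 to -2.82). When Ltf-high cells also met the limits on Fcnb, Elane, Prtn3 and Mpo, the median of this list was 0.19, so its direction depended on which Ltf-high cells were compared. Elane, Prtn3 and Mpo are primary granule genes themselves, and the cause of the shift was not tested.

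Of 46 transcription factors tested, 23 were at least 2-fold higher, 2 were lower and 21 lay between, with a median of 1.01. Cebpe, the factor that drives the secondary granule programme, was at 13.6 CPM in members and 267 CPM in Ltf-high cells (-4.30, -4.81 to -3.82), and Ikzf1 was at -1.31 (-1.54 to -1.09). Junb and Atf3, which respond early to stimulation, were at 2.61 (2.57 to 2.66) and 2.71 (2.51 to 2.91), and Trps1 was at 2.33 (2.07 to 2.58). Among 11 genes of mRNA turnover, 7 were higher and 0 lower, with a median of 1.55. Zfp36, which destabilizes cytokine mRNA, was at 1374 CPM against 280 CPM (2.30, 2.23 to 2.36). Btg2 was at 2.06 (1.99 to 2.13) and Zfp36l2 at 1.87 (1.77 to 1.98), while Pan3 and Cnot1, parts of deadenylase complexes, were at -0.04 (-0.34 to 0.24) and -0.05 (-0.27 to 0.17).

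Survival and interferon genes were counted next. Of 27 genes of apoptosis and survival, 11 were higher, 16 lay within 2-fold and 0 were lower, with a median of 0.72. Gadd45b, a stress-response gene, was at 3.37 (3.29 to 3.45), the kinase Pim1 at 3.15 (3.07 to 3.22) and the Bcl2 relative Bcl2a1a, which has near-identical copies, at 2.64 (2.14 to 3.13). Casp8 and Bak1 were at -0.71 (-1.29 to -0.18) and -0.96 (-1.61 to -0.37). Of 28 interferon-response genes, 19 were higher and 0 lower, with a median of 2.05. Oasl1, Rtp4 and Oasl2 were at 4.16 (3.42 to 4.96), 3.57 (3.21 to 3.94) and 3.55 (3.12 to 3.99), each from fewer than 200 UMIs in members. Bst2 and Stat2 were at 0.00 (-0.44 to 0.41) and -0.00 (-0.81 to 0.72). Over single members under the floor, the interferon list had a median of 20.4 UMIs per 10000 (middle 50%, 11.8 to 31.9), a 90th percentile of 48.3 and a highest value of 470.

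Of the lists counted, that of the cell cycle had most genes lower. Of 36 tested, 25 were at least 2-fold lower and 0 higher, with a median of -1.19. Their sum was 2306 CPM in members under the floor, 7662 CPM in those above it and 11203 CPM in Ltf-high cells. Per cell, the median of the list was 22.8 UMIs per 10000 under the floor and 26.4 above it, and the 90th percentile was 37.3 and 222, so that the difference between the sums was not that of the typical member. In Ltf-high cells the median was 52.3 and the 90th percentile 206. The limits on Fcnb, Elane, Prtn3 and Mpo were set for members only. Cells with these transcripts stayed in the Ltf-high class, so the lower cell cycle values of members may in part be set by the rule. H2afz, a histone variant, was at 651 CPM in all members against 3340 CPM (-2.36, -2.43 to -2.29). Cdc20, an activator of mitotic exit, had 10 UMIs against 683 (-3.37, -4.44 to -2.49). Cks2, Tk1 and Cenpa had the highest ratios of the list, at -0.29, -0.49 and -0.56. Cep55 had 1 UMI in members and 211 in Ltf-high cells. Tmem45a2, Gatm, Mogat2, 4930438A08Rik, 1700020L24Rik and Tmem216 were named for their low ratios among all genes, not as cell cycle genes. They had 1 to 9 UMIs in members and 231 to 1472 in Ltf-high cells.

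Several lists differed little between the classes. Of 35 genes of actin and motility, 32 lay within 2-fold and 3 were higher, with a median of 0.09, although Lsp1, Lyn and Fgr were at 1.21 (1.12 to 1.29), 1.04 (0.91 to 1.16) and 1.03 (0.85 to 1.20). Myl6 and Vim, the lowest of the list, were at -0.35 (-0.40 to -0.29) and -0.94 (-1.04 to -0.84). Of 8 subunits and partners of the NADPH oxidase, which makes superoxide, 7 lay within 2-fold. Cybb, its catalytic chain, was lower at 394 CPM against 1917 CPM (-2.28, -2.37 to -2.19), and Cyba was at -0.91 (-0.96 to -0.85). Ncf1 and Rac1, of the cytosolic part, were at 0.70 (0.63 to 0.76) and 0.25 (0.13 to 0.38). The membrane chains and these cytosolic members thus had unequal ratios.

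Of 25 genes of glycolysis and hypoxia, 19 lay within 2-fold, 5 were higher and 1 lower, with a median of 0.01. Ddit4, Hif1a and Bnip3 were at 2.12 (1.79 to 2.46), 1.80 (1.66 to 1.94) and 1.5 (0.91 to 2.07), while Ldha and Gys1 were at -0.99 (-1.10 to -0.89) and -2.46 (-3.25 to -1.77). Of 21 genes of lipids and lipolysis, 7 were higher and 5 lower, with a median of 0.24. Hilpda, like G0s2 an inhibitor of lipolysis, was at 2.17 (2.06 to 2.27), and Fabp5 was at 2.41 (2.14 to 2.68). Lta4h, which makes leukotriene B4, was at 17.3 CPM against 354 CPM (-4.35, -4.80 to -3.94), the same direction as the leukotriene receptor Ltb4r1. Ptges rested on 3 UMIs in members.

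Of 43 genes of the mature neutrophil list, 35 were higher and 2 lower, with a median of 2.02. The list was chosen with earlier results of these data known and is not independent evidence of the label. Wfdc21 and Ifitm6 were its lowest, at -1.08 (-1.13 to -1.04) and -1.28 (-1.35 to -1.22). In the S100 list without S100a8, S100a6 was at 2.09 (2.06 to 2.12), S100a11 at 0.96 (0.92 to 1.0) and S100a9 at -0.72 (-0.72 to -0.71). S100a1 was at -1.73 (-2.31 to -1.20), and S100a4 at 1.21 over all members but 6.03 CPM in those under the floor against 28.6 CPM in Ltf-high cells. Of 15 genes of antigen presentation by class I, 5 were higher and 0 lower, with a median of 0.57. H2-D1 was at 1.23 (1.18 to 1.28), Psmb8 at -0.05 (-0.26 to 0.15) and Erap1 at -0.95 (-1.89 to -0.14). H2-Q6, at 1.22 (0.80 to 1.63), was at 6.58 CPM in members under the floor and 67.6 CPM in those above it.

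Of 5 nuclear RNAs tested, 3 were higher, with a median of 1.17. Malat1 was at 13548 CPM in members under the floor, 12628 CPM above it and 5910 CPM in Ltf-high cells, and Neat1 at 1022, 558 and 335 CPM. Xist and Kcnq1ot1 were at -0.17 (-0.31 to -0.04) and 0.54 (0.30 to 0.78) over all members, and both were lower in members under the floor, at 75.7 CPM and 5.48 CPM, than in those above it, at 441 CPM and 204 CPM. Meg3 had 0.548 CPM under the floor and 53.1 CPM above it. With members under the floor alone, the median of this list was -1.50. Mitochondrial transcripts were a median of 0.473% of the UMIs of a member under the floor, 1.01% in Ltf-high cells and 4.71% in B-lineage cells. The ribosomal protein genes gave medians of 2.91%, 4.34% and 18.9%.

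The 74 members above the floor were split from the 580 under it by their gene count, which sets the difference in genes and favours barcodes with more genes per UMI. Their median depth was 8638.5 UMIs, against 2849, and their median number of genes 2402, against 969. At 1000 UMIs they held 570 genes (524 to 599) against 473 (441 to 497, n = 575), and the split bears on this value too. Mitochondrial transcripts were a median of 2.39% of their UMIs and ribosomal protein transcripts 11.2%, against 0.473% and 2.91% under the floor. A doublet caller marked 54 of the 74, or 73.0% (61.4% to 82.6%), and 7 of the 580, or 1.21% (0.487% to 2.47%). It marked 9.40% of Ltf-high cells, 2.75% of B-lineage cells and 3.98% of all barcodes that passed the limits.

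Summed over cells, transcripts of the B-cell, dendritic, cartilage and bone lists were higher above the floor than under it. Over all 4432 genes tested, 29.0% were at least 2-fold lower under the floor. All 11 genes of the B-cell list with at least 50 UMIs were at least 2-fold lower under the floor than above it, and in sum the list was at 298 CPM and 6813 CPM. Of the 74 members above the floor, 53 (71.6%) held at least 3 UMIs of the list, against 29 of 580 (5.00%) under it and 262 of 1798 Ltf-high cells (14.6%). Igkc, an immunoglobulin light chain, was at 106 CPM under the floor and 3598 CPM above it. The highest member above the floor held 1332 UMIs of Igkc per 10000, against a 90th percentile of 26.8 and a median of 1.89, so the sum does not describe the typical member. A single member held 46.2% of the B-list UMIs above the floor, although the median member there still held 47.1 per 10000, against 0 under the floor. Above the floor, the median was 68.1 in the 54 called doublets and 2.64 in the 20 members not called. Of those 20, 8 held at least 3 UMIs of the list. H2-Ab1, of the dendritic list, was at 19.7 CPM under the floor and 193 CPM above it. The dendritic list does not set dendritic cells apart from B cells here: it was at 577 CPM in members above the floor and at 1262 CPM in B-lineage cells, of which 53.2% held at least 3 of its UMIs.

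Cartilage and bone genes were held by fewer members. The chondrocyte list was at 122 CPM under the floor and 8457 CPM above it, and all 10 of its genes were at least 2-fold lower under the floor. A single member above the floor held 88.9% of these UMIs, and 8 of the 74 held at least 3. The osteogenic list was at 141 CPM and 4426 CPM, and 5 members held 98.5% of its UMIs above the floor. The 20 members above the floor that were not called doublets held 6915 of its 7002 chondrocyte-list UMIs. They held 3431 of the 3665 osteogenic-list UMIs there. Fn1, Timp3, Col9a2, Col11a1, Col2a1 and Bglap2 had the lowest ratios, between -7.42 and -6.48 on the log2 scale. Fn1, fibronectin, was at 8.77 CPM under the floor and 1500 CPM above it, and Col2a1, the collagen of cartilage, at 60.9 CPM and 5527 CPM. Bglap2 has a near-identical copy, so its counts are uncertain. Sparc, the most abundant gene of the osteogenic list in members, was at 55.4 CPM and 2802 CPM.

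**Figure D4:**
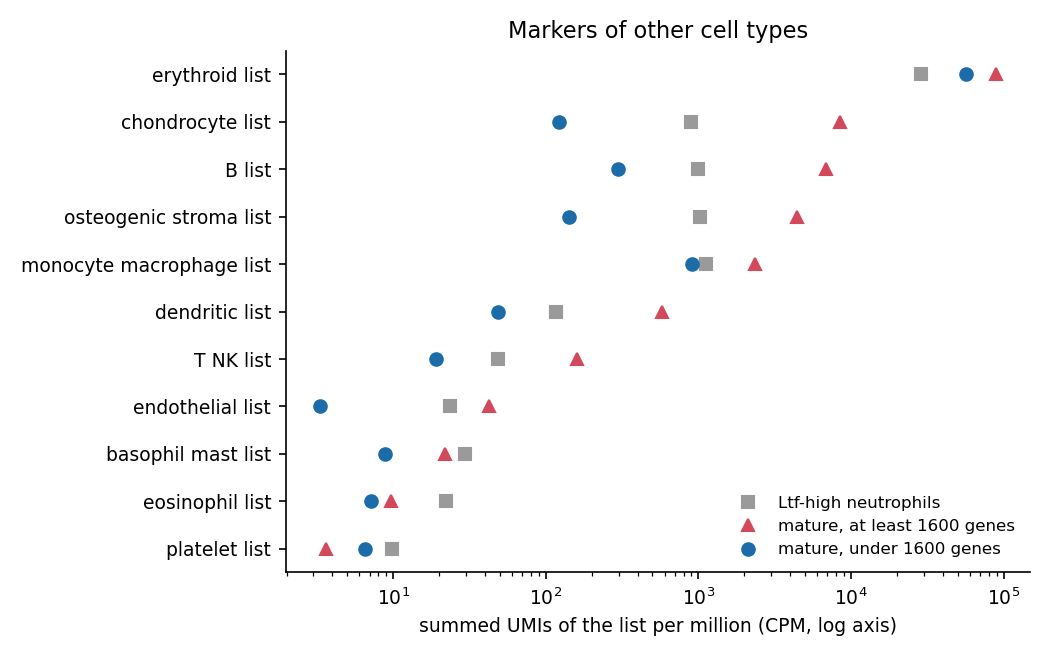
Summed CPM (log axis) of marker lists of 11 other cell types in members under 1600 genes (circles), members of at least 1600 genes (triangles) and Ltf-high neutrophils (squares). For the chondrocyte, B, osteogenic, endothelial, dendritic and T NK lists the triangles lie far to the right of the circles, and for the platelet, eosinophil and basophil lists all classes lie under 30 CPM.

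At least 10 UMIs of 1 of 9 other cell types' lists (without the erythroid and the monocyte lists, whose genes were found in all classes) were held by 54 of 74 members above the floor, or 73.0% (61.4% to 82.6%), and by 4 of 580 under it, or 0.690% (0.188% to 1.76%). Of the 20 members above the floor that the caller did not mark, 10 passed this mark (27.2% to 72.8%). The share was 8.45% in Ltf-high cells. A fixed number of UMIs is reached more easily by deeper barcodes and members above the floor were deeper. The part of doublets in the results above the floor was not tested.

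The remaining lists bear on free RNA and on minor types. Erythroid transcripts were at 56530 CPM under the floor, 89087 CPM above it, 28722.5 CPM in Ltf-high cells and 43083 CPM in B-lineage cells, and 99.5% of members under the floor held at least 3 UMIs of them. The 5 members richest in them held 40.7% of these UMIs under the floor, and the median member held 40.4 per 10000 against 34.5 in B-lineage cells. Above the floor the 5 richest members held 56.8% of them, and the median member held 22.5 per 10000, less than under the floor although the sum was higher. Hbb-bs, the adult β-globin, had a log2 ratio against Ltf-high cells of 1.16 over sums but of 0.34 at equal depth. Of the monocyte list, which has genes that neutrophils share, Ly6c2 held most UMIs (583 CPM in members, 955 CPM in Ltf-high cells), and the list was at 905 CPM under the floor, 2360 CPM above it and 5479 CPM in monocytes. A single member held 53.5% of the monocyte-list UMIs above the floor, and the median member held 5.40 per 10000 there against 8.05 under the floor. T and NK, eosinophil, basophil and mast cell, platelet and endothelial lists were between 3.29 and 19.2 CPM under the floor. Listed at 0 UMIs there were 4 of 10 T and NK, 6 of 9 eosinophil, 2 of 8 basophil and mast, 3 of 6 platelet and 4 of 7 endothelial genes. Their most abundant genes in members, Il7r, Ear2, Kit, Pf4 and Pecam1, each had 7 to 40 UMIs over all 654 members. Above the floor these lists were at 161 CPM (T and NK), 42.3 CPM (endothelial, from 35 UMIs) and between 3.62 and 21.7 CPM (the others).

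The direct comparison within members covered 4432 genes with at least 50 UMIs. Of these, 512 (11.6%) were at least 2-fold higher under the floor and 1284 (29.0%) at least 2-fold lower, with a median log2 ratio of -0.18. With called doublets left out, 579 of 3473 (16.7%) were higher and 765 (22.0%) lower. The 6 genes with the highest ratios were Jaml, Asprv1, Entpd1, Osgin1, Gla and Hcar2, between 2.41 and 1.95. Asprv1, a protease of mature neutrophils, was at 584 CPM under the floor and 128 CPM above it, and Entpd1, the ectonucleotidase CD39, at 307 CPM and 70.0 CPM. All 6 were also higher in members than in Ltf-high cells, with log2 ratios between 2.51 and 4.13. Of 43 genes of the mature neutrophil list, 31 were higher under the floor and 0 lower, with a median of 1.39. Of 30 cell cycle genes, 27 were lower and 0 higher, with a median of -4.04. These ratios are over summed UMIs, in which the members above the floor with most cell cycle transcripts weigh most, and the per-cell medians of the list lay close together, as given above. Of 81 ribosomal protein genes, 77 were lower and 0 higher, with a median of -2.39.

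The ratios against Ltf-high cells depended on whether the members above the floor were included. For Il1b the log2 ratio was 4.90 with members under the floor and 4.56 with all members, and for Cxcl2 it was 4.26 and 3.95. Among the genes named, Fn1, Timp3, Col9a2, Col11a1, Col2a1, Igkc, Lyz1, Meg3, S100a4, H2-Ab1 and H2-Q6 were at least 2-fold higher over all members and had a log2 ratio below 0 with the members under the floor alone. For Fn1 the values were 3.43 and -2.33, and for Igkc 1.08 and -2.42. The Ltf-high class kept its barcodes above the floor in all these values.

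Members under the floor differed among themselves along their depth. They were divided into 4 bins of 145 barcodes, a division added after the data were seen, with median depths of 1924, 2536, 3240 and 4324 UMIs. Cxcl2 was at 18335, 16744, 11191 and 6039 CPM from the shallowest to the deepest bin, and Il1b at 5852, 5901, 3875 and 2306 CPM. Csf3r was at 1251, 954, 687 and 338 CPM. Camp went the other way, at 507, 568, 1243 and 2583 CPM, and Ngp was at 745, 1568, 3235 and 5197 CPM. S100a8 was at 30825, 40072, 57663 and 62599.5 CPM. The counting intervals of the first and last bin did not overlap for Cxcl2, Il1b, Csf3r, Camp or Ngp. S100a8, Cxcr2 and Retnlg were part of the rule, and their values are a description. A deep barcode meets the limits on the latter pair more easily, and Cxcr2 and Retnlg were at 854 to 483 CPM and 22119 to 43353 CPM from first to last bin.

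Other measures moved with depth too. The nuclear RNA Malat1 was at 18183, 16089, 13703 and 10449 CPM, Gm42418 at 54954, 46077, 38247 and 27991 CPM, and ribosomal protein genes took 3.30%, 3.03%, 2.84% and 2.61% of UMIs. The median number of genes in 1000 UMIs was 489, 478, 462 and 443 in the same order. A deep barcode stays under 1600 genes only with few genes per UMI, so the limit bears on this order. The interferon list was at 3274 to 2275 CPM, and the B list at 401, 310, 376 and 202 CPM. The erythroid list was between 4179 and 5542 CPM in the 3 shallower bins and at 135813 CPM in the deepest. Called doublets numbered 0, 0, 1 and 6. Their part in these patterns was not tested. In all 654 members divided the same way, the deepest bin held 73 of the 74 members above the floor, and Camp was at 501, 638, 1670 and 2234 CPM.

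**Figure D5:**
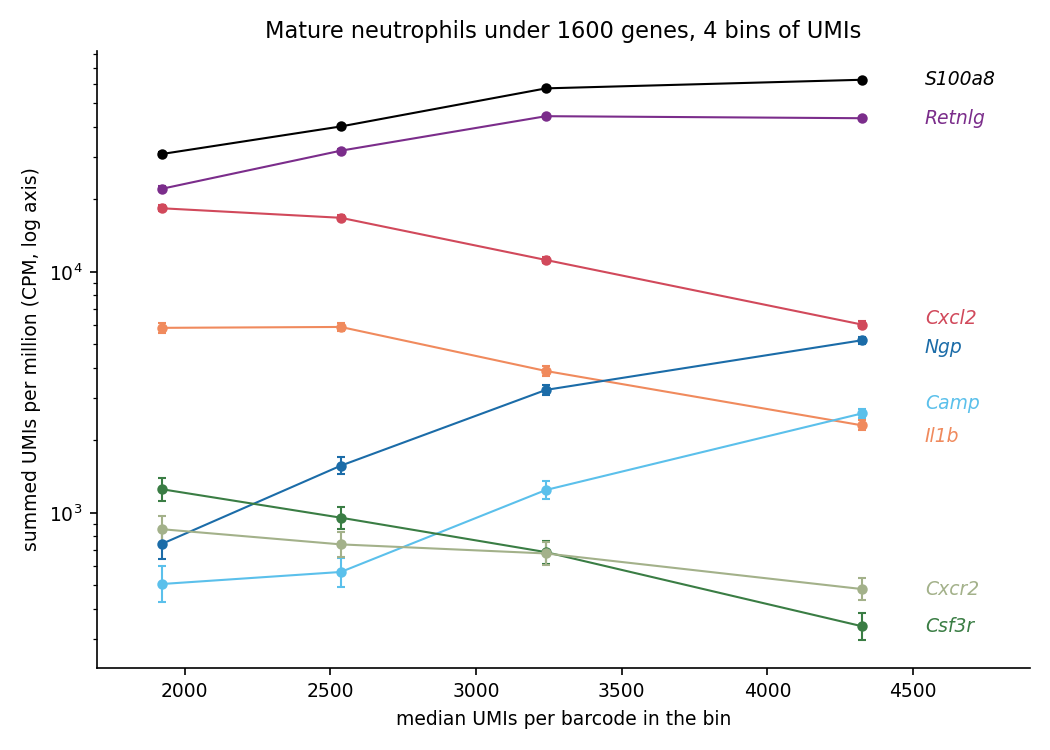
Summed CPM (log axis) of 8 genes against the median UMIs per barcode in 4 bins of mature neutrophils under 1600 genes (145 barcodes each), with exact Poisson 95% intervals. Cxcl2, Il1b and Csf3r are lower in the deepest bin than in the shallowest, and Camp, Ngp and S100a8 are higher.

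At equal depth, the amounts of secondary granule and inflammatory transcripts varied inversely over members. Over 575 members under the floor thinned to 1000 UMIs, the UMIs of the secondary granule list and of the inflammatory list had a Spearman correlation of -0.58, and the former and S100a8 with S100a9 one of 0.75. The inflammatory list and S100a8 with S100a9 gave -0.65. S100a8 was used to choose the members, so the correlations with it are a description of the chosen cells. The points are cells of 1 library whose UMIs add to a fixed total, so that an abundant transcript lowers the others, and no p was computed. Per cell, the inflammatory list had a median of 322 UMIs per 10000 in members under the floor (middle 50%, 163 to 548), against 104 (51.3 to 195) above it and 30.5 (18.2 to 58.3) in Ltf-high cells.

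The reporter transcripts were not used by the rule. WPRE, the viral element at the end of the tdTomato transcript, had 266 UMIs in 189 of 654 members, or 28.9%, and at most 8 in 1 member. It was seen in 33.1% of Ltf-high cells (median depth 7493.5 UMIs), 49.5% of monocytes (8623) and 18.4% of B-lineage cells (3009). The share in members, at 3028.5 UMIs, was above that of B-lineage cells at nearly the same depth. WPRE had 864 of 17473983 UMIs in Ltf-high cells and 930 of 16924251 in B-lineage cells, against 266 of 2652105 in members. The study called cells tdTomato-positive only above a cutoff of WPRE. That cutoff was not applied here, so these are not shares of reporter-positive cells. tdTomato itself had 4 UMIs in 3 members and Cre 0, which allows a share of cells with a UMI of up to 0.459%. GFP had 63 UMIs, of which 61 were in 1 member above the floor. That barcode held 3438 genes, 1013 UMIs of the osteogenic list with 335 of Col1a1, and also 121 UMIs of S100a8 and 66 of Retnlg. The doublet caller did not mark it.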

How the data were processed

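Cells of 1 pooled tibia sample were measured by 10x single-cell RNA sequencing. The deposited values are counts of UMIs per gene and barcode, which the authors made with Cell Ranger 3.1.0 against mm10. Reporter sequences were in a separate deposited count matrix. The labels also name Seurat 3. For the gene annotation, the release is not given in the sources read. Of 31053 genes, 30934 identifiers were found in GENCODE M21, which gave coordinates.

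The members, the 34 lists (576 distinct genes, 571 in the file) and the comparisons were chosen with earlier results of these data known. Counts were summed per class and given per 1000000 UMIs of the class (CPM). Log2 ratios have exact conditional 95% intervals, levels exact Poisson and shares Clopper-Pearson intervals. Genes with at least 50 UMIs were counted past 2-fold. For equal depth, 1000 UMIs were drawn per barcode in 20 draws, and 5 members with fewer were left out. Scrublet (scanpy 1.11.5, expected doublet rate 6%) called 428 doublets among 10767 barcodes (3.98%). They were kept unless stated. The limit for a count of 0 is 3 counts.

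Named are the focal markers, the 10 genes with most UMIs in members, the 12 highest and 12 lowest log2 ratios against Ltf-high cells (at least 200 UMIs, same direction at equal depth, with cells weighed equally and without the richest cell), 6 each way for the floor, the 3 highest and 2 lowest of each list, and the most abundant gene of each marker list. Genes named beyond this rule were chosen after their values were seen. Some genes that meet the rule are not reported here. The scripts were tested on simulated data. Analyses used Python 3.11.15, numpy 2.4.6, scipy 1.17.1 and pandas 2.3.3.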

Additional observations from a re-analysis of the deposited data

How the results depend on the processing

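No paired analysis was possible because the cells form 1 pooled sample, and there was no replicate to leave out. Precision was limited by the depth of the members, at a median of 3028.5 UMIs, and genes with few UMIs in members have wide intervals. The restriction to members under 1600 genes, that to both classes under 1600 genes without doublets, and the window of 2000 to 6000 UMIs for the share above the floor were chosen after seeing the data. Unless a number of genes or barcodes shows it, the cause of a shift was not tested.

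There were 1219 members without the Cxcr2 and Retnlg limits and 338 with at least 2 UMIs of Cxcr2. The share of members above the floor was 3.37% without called doublets, 51.1% with a floor of 1000 genes, 8.72% with 2000 genes and 2.62% among 2000 to 6000 UMIs. Members held a median of 278 genes in 500 UMIs and 781 in 2000 UMIs.

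Against Ltf-high cells, genes at least 2-fold higher numbered 791 without granule and S100 genes in the denominator, 769 among genes with at least 200 UMIs, 476 among 2000 to 6000 UMIs, and 570 with both classes under 1600 genes without doublets. Genes at least 2-fold lower numbered 1932 with cells weighed equally, 1924 after thinning, 2380 without granule and S100 genes in the denominator, 736 with at least 200 UMIs, 1930 without doublets, 683 with Ltf-high cells that met the Fcnb and primary granule limits, 356 among 2000 to 6000 UMIs, 3499 with members under 1600 genes, and 491 with both classes under 1600 genes. Between members under and above the floor, 335 genes were higher and 286 lower with at least 200 UMIs, 2693 were lower with at least 20 UMIs and 765 without doublets.

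These log2 ratios against Ltf-high cells changed direction. With members under 1600 genes alone, the nuclear RNA list had a median of -1.50 and the B list one of -1.58, and Fn1 was at -2.33, S100a4 at -2.24, Col11a1 at -3.98, Col9a2 at -4.18, Igkc at -2.42, Timp3 at -2.25, Lyz1 at -2.13, Meg3 at -2.83, Col2a1 at -3.04, H2-Ab1 at -0.82 and H2-Q6 at -0.74. With both classes under 1600 genes without doublets, Col11a1 was at -0.011, Col9a2 at -0.86, Pf4 at 0.14, Lyz1 at -3.01 and Mmp8 at -0.34. Among 2000 to 6000 UMIs, Col11a1 was at -0.66, Col9a2 at -0.69, Lyz1 at -3.09 and Mmp8 at -0.46. With cells weighed equally, Col11a1 was at -0.32 and Col9a2 at -0.44, and after thinning at -0.26 and -0.42. Without doublets, Lyz1 was at -2.43 and H2-Ab1 at -0.42. With Ltf limits of 10 and 40, Pf4 was at 1.11. With the stricter Ltf-high class, the primary granule list had a median of 0.19. Between members under and above the floor, the nuclear RNA list had a median of 0.10 and the monocyte list one of 0.73 with at least 200 UMIs, and the monocyte list was at 0.75 without doublets.

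For the named genes against Ltf-high cells, 918 of 1702 values over all alternatives stayed within the counting interval of the reported value, 757 left it and 27 changed direction. Between members under and above the floor, these numbers were 668, 210 and 0 of 878. Of the list medians against Ltf-high cells, 243 of 398 values lay within 0.3 (log2) of the reported one, 152 lay farther off and 3 changed direction. Between members under and above the floor, these numbers were 194, 33 and 3 of 230. A change of direction was counted only where the reported value was at least 1.0 (log2) from 0.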
